A study of Mus musculus with 39 samples.

Results

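Serpins are a superfamily of proteins that mostly inhibit serine proteases. A typical serpin offers a reactive loop as bait, is cut by its target protease and then traps that protease in a covalent complex. The liver secretes the serpins of blood plasma, among them the inhibitors that hold back coagulation, fibrinolysis, complement and neutrophil proteases. A few members inhibit nothing and instead carry hormones or act as chaperones. Glucocorticoids are steroid hormones that act on the liver through the glucocorticoid receptor (GR), and serpins of the antichymotrypsin-like group belong to the liver's acute phase proteins.

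The serpin genes described here are those named Serpin with a clade letter A to I and a number that had 10 or more counts in at least 3 of the 39 libraries. Of 63 symbols of that form 41 met this minimum, as did 18274 genes in all, and 40 of the 41 are described. Among them Serpina3h is annotated as a transcribed pseudogene and had at most 21 counts in any library. Just inside the limit, Serpina3b, Serpina3j, Serpinb6c and Serpinb9b had 10 counts in 4 libraries. Just outside it, Serpina3a reached 10 counts in 2 libraries, with at most 11. Of the 22 clade A members 21 lie together on chromosome 12, chr12:103614786-104414329 in mm10, and Serpina7 lies on chromosome X. Clade B has 7 members on chromosome 13 and 2 on chromosome 1, and the other 9 members described lie on chromosomes 1, 2, 3, 7, 11, 14 and 16.

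RNA was sequenced from tissues of male C57BL/6 mice aged 10 to 16 weeks, to learn how loss of E47 alters the glucocorticoid response. The Tcf3 gene gives E47, a helix-loop-helix transcription factor, as a splice form. Mice lacking E47 in every cell (E47-/-) and wild-type littermates (WT) drank dexamethasone (Dex), a synthetic GR ligand, for 3 weeks at 10 µg/ml. After an overnight fast and a glucose tolerance test 3 E47-/- and 2 WT livers were collected, with quadriceps muscle (3 and 2) and the epididymal fat pad as white adipose tissue (WAT; 2 and 2). Other mice received corticosterone (Cort), the natural hormone, at 100 µg/ml for 3 weeks with the same test (liver, 4 and 4) or stayed untreated (liver, 6 and 5). In a last experiment mice carrying Albcre/+ and E47fl/fl, which lose E47 in albumin-expressing cells (E47LKO, 3), and control mice without Cre (1 E47fl/+ and 2 E47fl/fl) were injected with 1 mg/kg Dex and their livers taken 1 h later. Counts of Tcf3 add E12, the other splice form, to E47 and therefore do not check the genotype. They were 11.7 ± 1.1 CPM (counts per M counts in genes; SD, n = 6) in untreated E47-/- and 12.7 ± 1.9 (n = 5) in untreated WT livers.

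Libraries held 15.5 M to 54.6 M counts in genes. Values are CPM of the counts in genes, and CPM per kilobase of exon where genes are compared with each other. Hepatocyte markers summed to 108713 to 173132 CPM in liver, 472 to 615 in WAT and 4.35 to 239 in muscle. P-values measure the spread between these mice. Treated and untreated livers came from separate experiments that also differed in library type or RNA kit and, for the 3-week mice, in the fast and glucose test, so treatment and experiment cannot be told apart. In bulk tissue, fewer cells of a type and less RNA per cell cannot be told apart either.

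The regulatory stretch before 3 members is shown. Of these, Serpina5 had the largest rise with Dex in WT liver and Serpina1e the largest fall with Cort in WT liver. Serpina1b, whose upstream stretch is almost that of Serpina1e, did not pass with either. Each line gives the 250 bases before the RefSeq start in GRCm38.p6, 5′ to 3′ on the gene's strand. Capitals mark AGAACA or its complement TGTTCT, the half-site of a glucocorticoid response element. Serpina1e lies at chr12:103956898-103957147 on the minus strand, Serpina1b at chr12:103738190-103738439 on the minus strand and Serpina5 at chr12:104100863-104101112 on the plus strand.
Serpina1e: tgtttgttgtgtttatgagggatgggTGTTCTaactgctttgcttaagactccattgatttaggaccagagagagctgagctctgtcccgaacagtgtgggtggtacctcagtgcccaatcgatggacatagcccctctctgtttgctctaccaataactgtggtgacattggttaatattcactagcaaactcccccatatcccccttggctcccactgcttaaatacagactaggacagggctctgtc
Serpina1b: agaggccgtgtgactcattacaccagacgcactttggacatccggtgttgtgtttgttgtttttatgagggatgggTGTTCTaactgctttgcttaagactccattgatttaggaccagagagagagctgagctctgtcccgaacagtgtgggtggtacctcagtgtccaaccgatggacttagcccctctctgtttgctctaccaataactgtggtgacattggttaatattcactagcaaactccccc
Serpina5: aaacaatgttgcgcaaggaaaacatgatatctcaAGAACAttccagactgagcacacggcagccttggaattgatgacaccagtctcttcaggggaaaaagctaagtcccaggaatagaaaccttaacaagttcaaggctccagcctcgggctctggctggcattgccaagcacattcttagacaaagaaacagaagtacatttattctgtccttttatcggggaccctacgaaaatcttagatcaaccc
None of the 3 stretches holds CANNTG, the E-box letters that E47 is known to bind, on either strand. Where they align, the Serpina1e and Serpina1b stretches were identical at 194 of 200 positions (97%). Each of the 3 held 1 half-site. Of the 40 members 32 had an entry in the promoter table, with 38 upstream windows of 250 bases. The half-site was in 34.21% of these windows against 16.08% of 32851 windows of all genes, and the E-box in 19 of the 38 windows against 66.22% of all. The member windows are not independent: Serpina1a to Serpina1e all held the half-site and were 91.6 to 97.0% identical in pairs. Some members also gave more than 1 window. Such a match is a description of letters and not evidence of binding. The table holds no entry for Serpina3k, Serpina3m, Serpina6, Serpina9, Serpina10, Serpina3h, Serpinb1a or Serping1.

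In untreated WT liver the 40 members together made up 4.25 ± 0.83% of all counts in genes (SD, n = 5; 3.37 to 5.64%). Per kilobase Serpina3k, an antichymotrypsin-like serpin, led with a level of 7573 CPM per kilobase, followed by the alpha-1 antitrypsin genes Serpina1e (5461), Serpina1d (2201), Serpina1b (2134), Serpina1a (1187) and Serpina1c (718). Serping1, the inhibitor of complement C1 and kallikrein, followed at 375 CPM per kilobase. Serpina3n stood at 364, Serpinf2 (antiplasmin) at 312 and Serpind1 (heparin cofactor II) at 282 CPM per kilobase. Serpina1d and Serpina1b did not differ beyond their spread, and neither did Serping1 and Serpina3n. Serpina3n was the most variable of these: the 5 untreated WT livers held 330, 277, 351, 835 and 1959 CPM. The level of Serpina1c is understated, because 31.5% of its exon bases lie opposite exons of B430119L08Rik and reads over both genes drop out of a count made without strand. Counted by strand, untreated WT livers held 489% of its unstranded counts. Of the 50-base windows of its transcripts 74.2% also occur in other genes. This share was 57.6% for Serpina1a, 50.9% for Serpina1d, 34.6% for Serpina1e, 29.5% for Serpina1b and 0.0% for Serpina5. How far shared windows alter the levels and order of these copies was not tested.

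The tissues differed in which serpins they held. In WT WAT after Dex Serpina3n led at 489 CPM per kilobase, followed by Serpinh1 (a collagen chaperone of the endoplasmic reticulum, 91.8), Serpina3c (70.9), Serping1 (63.8) and Serpinb6a (38.8). In WT muscle after Dex Serpinb6a, an inhibitor inside cells, led at 69.9 CPM per kilobase, followed by Serping1 (20.6), Serpine2 (protease nexin, 9.62), Serpinh1 (9.52) and Serpinf1 (pigment epithelium-derived factor, 7.2). These serpins made up 0.201 ± 0.019% of counts in WT WAT and 0.0599 ± 0.0081% in WT muscle (SD, n = 2 each), against 5.01% in the 2 WT livers after Dex.

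**Figure D1:**
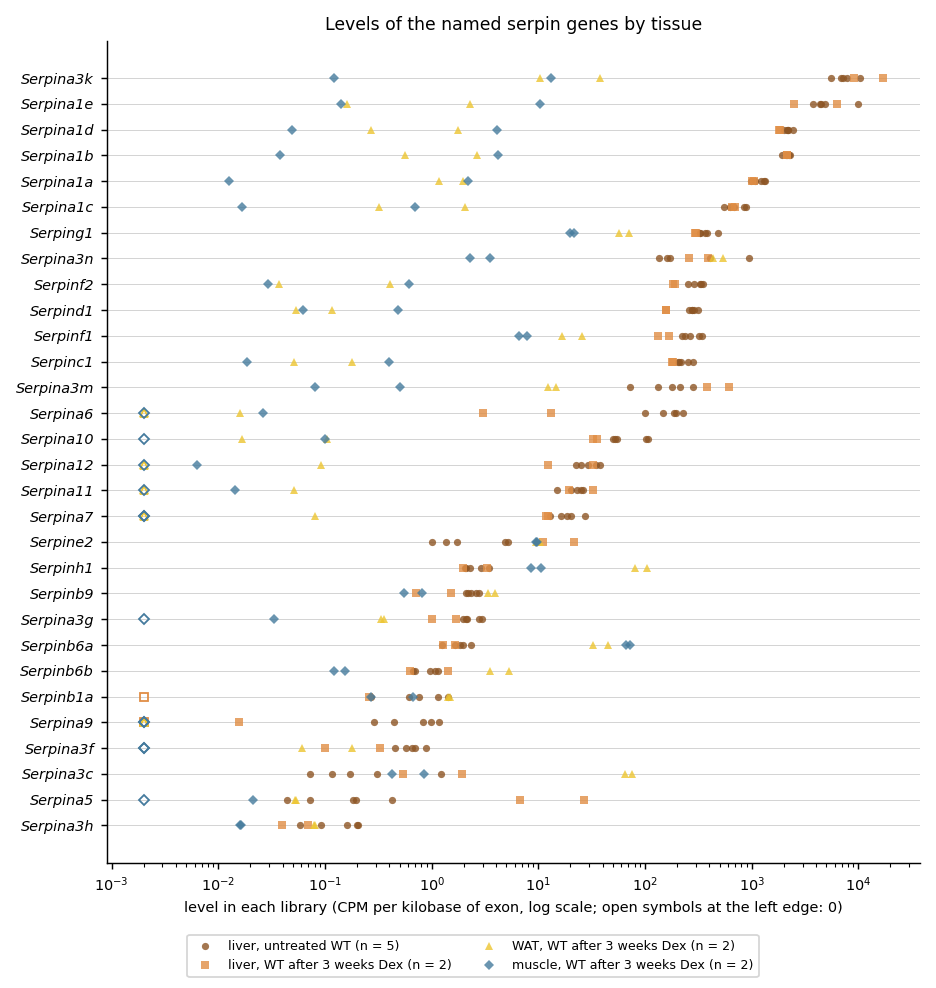
Level of each named serpin gene in CPM per kilobase of exon (log axis) in each WT library of untreated liver, Dex liver, Dex WAT and Dex muscle, with symbols for single libraries and open symbols for 0. Serpina3k and the Serpina1 genes lead in liver (7573 CPM per kilobase for Serpina3k in untreated WT liver), Serpina3n leads in WAT (489) and Serpinb6a in muscle (69.9).

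Between tissues after Dex, 38 members could be tested with edgeR's quasi-likelihood test, averaged over both genotypes. Against WAT, 21 members were higher in liver, with 33.8% of all 18113 genes tested called higher, and 13 were lower, with 41.6% of all genes called lower. Against muscle 25 were higher in liver (36.0% of all genes) and 6 lower (40.4%). Of the 38 members 55.3% were thus higher in liver than in WAT and 65.8% higher than in muscle. Between WAT and muscle 16 were higher in WAT (43.5% of all genes) and 4 lower (33.8%). The 13 lower in liver than in WAT include Serpina3b, Serpina3j, Serpinb6c and Serpinb9b, which had 10 counts in only 4 libraries. None of them met that minimum through Dex liver, so these differences are not independent of it. The test scales each library by its composition. In a separate scaling of this kind over all 39 libraries, WAT levels came out at 0.591 to 0.633 of their CPM. The tissue test took its own factors from the Dex libraries of the tissue comparison, so these ratios do not apply directly to its log2 differences.

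The members of plasma were among those higher in liver. Serpind1 was at 343 and 343 CPM in WT and 285, 365 and 423 CPM in E47-/- Dex livers, and at 0.116 and 0.252 CPM in WT WAT. Serpinc1 (antithrombin) was at 1580 ± 109 CPM in the 5 Dex livers and 0.968 ± 0.542 in the 4 WAT libraries, a log2 difference of 11.45 ± 0.88 (SE; adjusted p = 1.42e-07, edgeR). Serpina7 (thyroxine-binding globulin) had 0 counts in all 5 muscle libraries and was at least 534-fold higher in liver, taking 3 counts per library as the floor. Serpina11 was 687-fold higher in liver than in WAT by the ratio of pooled rates (95% interval for counting error 348 to 1592), from 8 counts in WAT in all, and 40.8% of its exon bases are shared with Gm28577 on the same strand. WT muscle replicate 2 held 122 CPM of the hepatocyte gene Alb against 1.17 in replicate 1, together with 3.43 against 0.160 CPM of Serpinc1 and 16.6 against 0.229 CPM of Serpina1e. The part of other tissue in these muscle levels was not tested.

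Other members were lower in liver. Serpinb6a was at 360 and 396 CPM in WT muscle, 306, 310 and 357 in E47-/- muscle, 242 and 178 in WT WAT and 278 and 181 in E47-/- WAT, and at 6.92 to 9.51 CPM in all 5 Dex livers. Its log2 difference between liver and muscle was -5.42 ± 0.18 (adjusted p = 4.5e-11, edgeR). Serpinh1 was at 253 and 195 CPM in WT WAT, 25.7 and 20.8 in WT muscle and 8.0 and 4.86 in WT liver, in that order without overlap. Serpina3c was at 169 and 145 CPM in WT and 170 and 196 in E47-/- WAT, against 1.20 and 4.23 CPM in WT Dex liver (log2 difference -5.34 ± 0.37, adjusted p = 4.6e-08, edgeR). Serpina3n, high in both tissues, was not called between liver and WAT, but was lower in muscle, where WT libraries held 4.74 and 7.23 CPM. Serpini1 (neuroserpin), an inhibitor of tissue plasminogen activator, was highest in muscle, at 2.4 and 1.91 CPM in WT, against 0.348 and 0.309 in WT WAT and 0.300 and 0 in WT liver. Serpinb1c was at 1.76 and 1.28 CPM in WT muscle and had 0 counts in all 5 Dex livers, so that it was at least 7.0-fold higher in muscle. It reached 10 counts in only 6 libraries, none of them Dex liver. Its muscle level thus helped to make it a member, and the difference is not independent of the count minimum.

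After 3 weeks of Dex, Serpina5 and Serpine2 rose most in WT liver among the members described. Serpina5, the protein C inhibitor, was at 0.421, 0.0954, 0.155, 0.394 and 0.927 CPM in untreated WT livers and at 14.5 and 58.2 CPM after Dex. E47-/- livers held 0.189 to 0.694 CPM untreated (median 0.269) and 6.60, 4.10 and 12.1 CPM after Dex. Dex livers lay above untreated livers without overlap in both genotypes, with log2 changes of 6.54 ± 0.62 (adjusted p = 3.02e-06) and 4.49 ± 0.55 (adjusted p = 2.41e-05, edgeR). The difference between the 2 changes was -2.05 ± 0.87 and did not pass (adjusted p = 1.0, edgeR). Of the 33 members tested for such a difference 0 passed and DESeq2 called 0, with 0.013% of all 15362 genes called by edgeR. An unadjusted p under 0.05 was found for 1 member and for 492 of all genes.

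**Figure D2:**
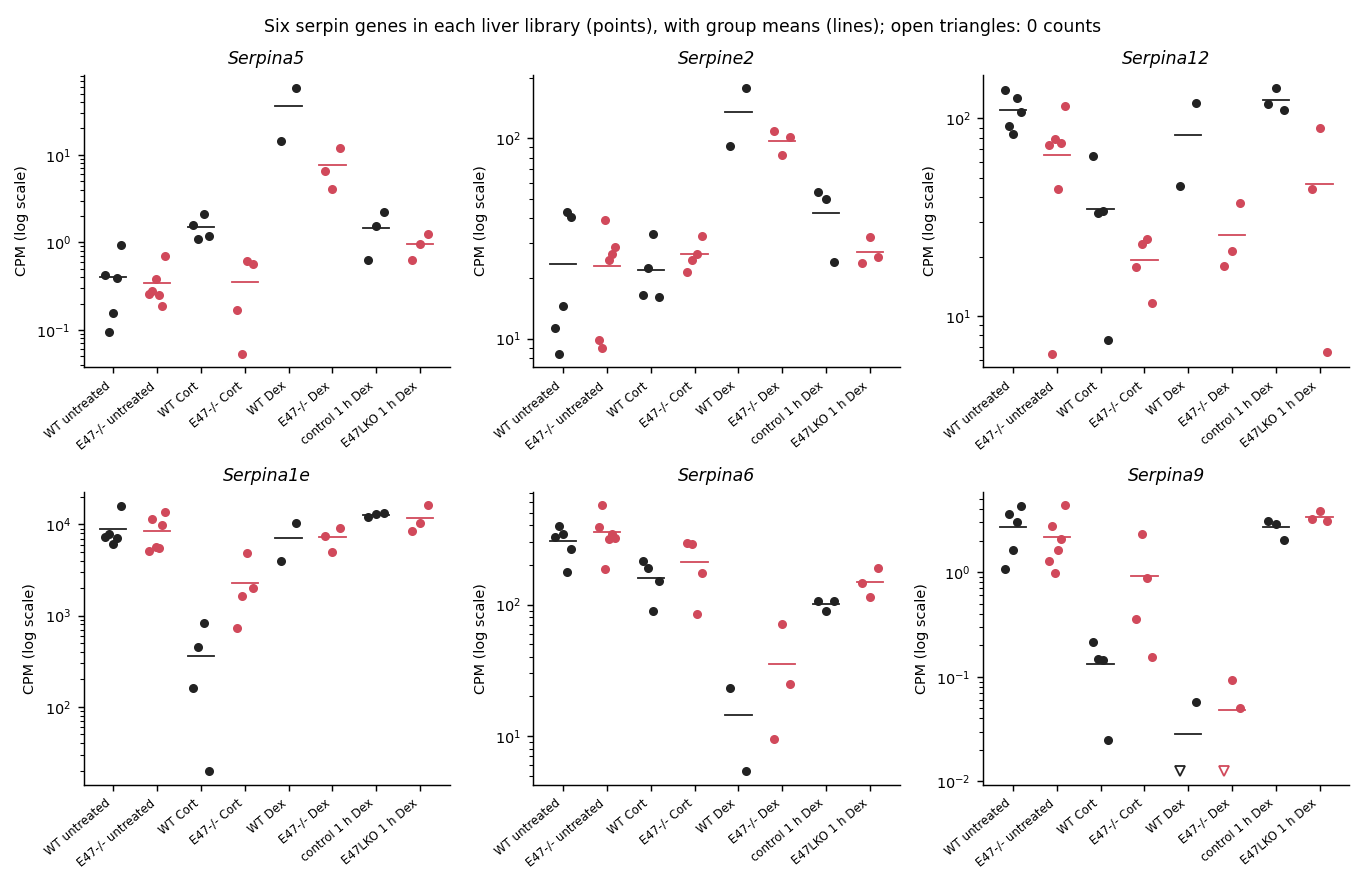
CPM (log axis) of Serpina5, Serpine2, Serpina12, Serpina1e, Serpina6 and Serpina9 in each liver library, black for WT or control and red for E47-/- or E47LKO, with lines at group means and open triangles for 0 counts. Serpina5 in WT Dex livers (14.5 and 58.2 CPM) stands above every other liver library, and Serpina1e in WT Cort livers (19.6 to 833 CPM) stands below every untreated one.

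In WT livers 4 of 33 members tested rose after 3 weeks of Dex (12.1%) and 10 fell (30.3%), with 13.8% of all 15362 genes called higher and 13.5% lower. In E47-/- livers 4 rose (12.1%) and 11 fell (33.3%), with 17.7% and 16.5% of all genes. The median log2 change of the members was -0.332 in WT and -0.258 in E47-/- livers, against -0.039 and -0.014 over all genes. Without WT Dex replicate 2 the WT count went from 14 to 4 (Serpina5, Serpina6, Serpina9 and Serpind1), and without E47-/- Dex replicate 1 the E47-/- count went from 15 to 6. Among 7 inhibitors of coagulation, fibrinolysis and complement 2 rose (Serpina5 and Serpine2) and 3 fell (Serpind1, Serpinf2 and Serpina10), in each genotype. Serpine2, which inhibits thrombin and plasminogen activators, was at 8.36 to 43.0 CPM in untreated WT livers and at 92.0 and 179 CPM after Dex, and at 109, 82.4 and 101 CPM in E47-/- Dex livers. Its log2 change was 2.59 ± 0.55 in WT (adjusted p = 0.00261) and 2.11 ± 0.48 in E47-/- livers (adjusted p = 0.00316, edgeR). Serpind1, a thrombin inhibitor, fell from 605, 563, 633, 602 and 692 CPM in untreated WT livers to 343 and 343 CPM, a log2 change of -0.84 ± 0.18 (adjusted p = 0.00303, edgeR). Serpina10, the protein Z-dependent inhibitor of factor Xa, fell from 175 to 372 CPM in untreated WT livers to 114 and 123 CPM. Serpinf2, the main plasmin inhibitor, fell from 589 to 821 CPM to 443 and 424 CPM. Serpinc1 and Serping1 did not pass in either genotype.

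The hormone carriers and other non-inhibitory members fell or did not pass after Dex. Serpina6, the corticosteroid-binding globulin of plasma, was at 329, 398, 346, 176 and 262 CPM in untreated WT livers and at 23.3 and 5.37 CPM after Dex. E47-/- livers held 187 to 570 CPM untreated (median 334) and 9.54, 70.6 and 24.9 CPM after Dex. The groups did not overlap, with log2 changes of -4.43 ± 0.79 (adjusted p = 0.000716) and -3.36 ± 0.61 (adjusted p = 0.000638, edgeR). Serpinf1 fell in both genotypes, by 0.89 ± 0.23 on the log2 scale in WT (adjusted p = 0.0103, edgeR), and Serpina7 passed in E47-/- livers alone, from a median of 92.4 CPM to 34.2, 22.8 and 68.4 CPM. The difference of its change between genotypes did not pass. Serpinh1 did not pass in either.

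Of the 7 antichymotrypsin-like members tested 2 rose and 2 fell in each genotype after Dex. Serpina3m rose from 124 to 482 CPM in untreated WT livers to 657 and 1058 CPM (log2 change 1.55 ± 0.34, adjusted p = 0.00352, edgeR). Serpina3k was at 14788, 14254, 11458, 16109 and 21282 CPM in untreated WT livers and at 18831 and 35326 after Dex, and its call (adjusted p = 0.044, edgeR) was lost in 9 of 16 fits that left out 1 library, with a log2 change of 0.23 without Dex replicate 2. Serpina3c passed in E47-/- livers alone, at 0.0321 to 1.22 CPM untreated and 2.75, 1.49 and 2.19 CPM after Dex (log2 change 2.49 ± 0.84, adjusted p = 0.0313, edgeR), a call lost without Dex replicate 1 or 3 or untreated replicate 2, 3 or 4. In WT livers its log2 change was 1.73 ± 0.94, and the difference between genotypes did not pass (adjusted p = 1.0, edgeR). Serpina3f and Serpina3g, a leukocyte inhibitor of proteases, fell in WT livers at levels under 7 CPM. None of the 5 alpha-1 antitrypsin genes passed, and Serpina1b was at 5185 and 5141 CPM in WT Dex livers against 5153 ± 312 untreated (SD, n = 5).

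Serpina9, known from germinal centre B cells, was at 1.07, 3.62, 1.63, 3.05 and 4.33 CPM in untreated WT livers and at 0 and 0.0572 CPM (1 count) after Dex. By pooled rates it was 103-fold lower in WT Dex livers (95% interval for counting error 18.4 to 4080) and 44.9-fold lower in E47-/- Dex livers (15.3 to 219). The fitted log2 changes were -6.47 ± 1.16 (adjusted p = 0.000761) and -5.38 ± 0.86 (adjusted p = 0.000244, edgeR). The 8 B cell markers summed to 10.49 to 34.2 CPM in untreated WT livers, none at 0 in the group, and to 3.35 to 7.89 CPM after Dex, with 4 at 0. In livers of E47-/- mice, which are known to lack mature B cells, they summed to 3.47 to 13.8 CPM untreated and 0.699 to 0.949 CPM after Dex. Serpina9 itself had 471 counts in the 6 untreated E47-/- livers and 480 counts in the 5 untreated WT livers. The part of B cells in the level of Serpina9 was not tested. Serpinb9, which inhibits granzyme B, fell from 7.38 to 9.66 CPM in untreated WT livers to 5.35 and 2.51 CPM, while the 8 T cell markers summed to 3.21 to 6.40 CPM untreated and 1.09 to 1.75 CPM after Dex, with 2 at 0. The part of T cells in Serpinb9 was not tested.

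**Figure D3:**
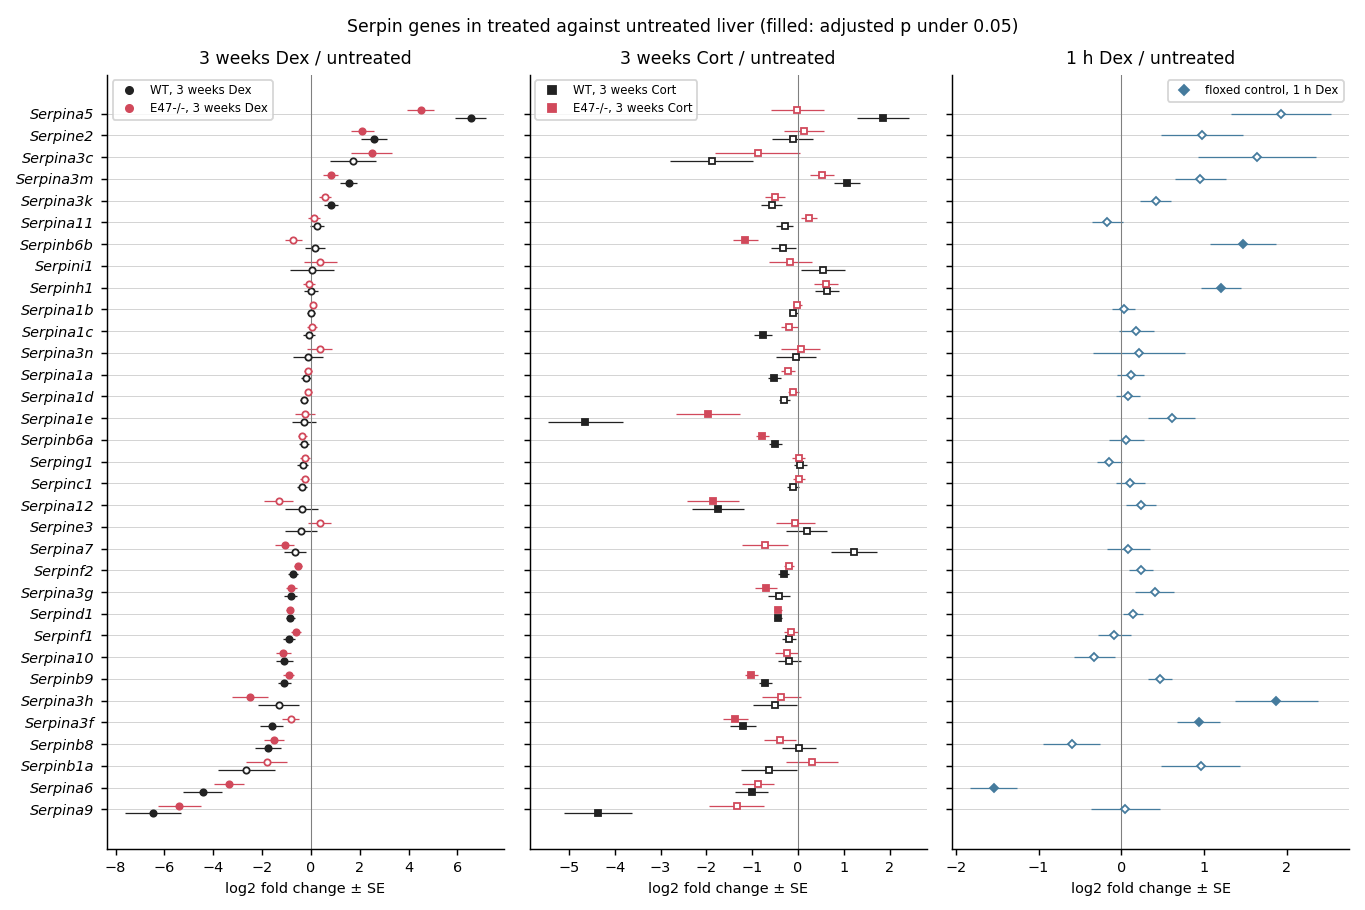
Log2 change ± SE of each serpin gene tested in treated against untreated liver after 3 weeks of Dex, after 3 weeks of Cort and 1 h after Dex, black or blue for WT or control and red for E47-/-, filled where the adjusted p is under 0.05. Serpina5 and Serpine2 lead the Dex panel (6.54 and 2.59 in WT), while Serpina1e and Serpina9 lie lowest in the Cort panel (-4.65 and -4.37 in WT).

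After 3 weeks of Cort the alpha-1 antitrypsin genes parted. These genes encode the main plasma inhibitor of neutrophil elastase, in several copies in mice. Serpina1e was at 7215, 7898, 6067, 7092 and 15884 CPM in untreated WT livers and at 160, 448, 833 and 19.6 CPM after Cort. E47-/- livers held 5111 to 13819 CPM untreated (median 7808) and 724, 1650, 4808 and 2020 CPM after Cort. All Cort livers lay below all untreated livers of their genotype, and the log2 change was -4.65 ± 0.82 in WT (adjusted p = 0.000428) and -1.97 ± 0.70 in E47-/- (adjusted p = 0.0336, edgeR). The WT call held without any 1 library. The E47-/- call was lost without Cort replicate 1, 2 or 4 or untreated replicate 2 or 6. The difference between the 2 changes was 2.68 ± 0.95 and did not pass (adjusted p = 0.646, edgeR).

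The other copies moved little or not at all. Serpina1b, whose upstream stretch is almost that of Serpina1e, was at 5153 ± 312 CPM in untreated WT (SD, n = 5) and 5041 ± 227 CPM in WT Cort livers (n = 4), and did not pass. Serpina1a fell from 2175 ± 275 to 1603 ± 223 CPM in WT (log2 change -0.51 ± 0.15, adjusted p = 0.0143, edgeR) and Serpina1c from 977 ± 194 to 608 ± 167 CPM (-0.76 ± 0.20, adjusted p = 0.00661, edgeR). With the strand column the change of Serpina1c was -0.44 (adjusted p = 0.0413, edgeR). In Cort libraries that column splits reads evenly, so it sets unlike counts against each other here and in the shares below. Serpina1d, at 3069 ± 214 and 2619 ± 108 CPM, did not pass. As a share of the counts of all 5 copies Serpina1e fell from 42.3 ± 9.5% in untreated WT to 3.35 ± 3.14% in WT Cort livers (0.214 to 7.40%) and was 16.3 ± 9.8% in E47-/- Cort livers (6.24 to 29.6%). With the strand column, which holds 489% of the unstranded Serpina1c counts in untreated WT and 317% in WT Cort livers, the shares of Serpina1e were 35.7%, 2.50% and 12.5%. The 5 copies summed to 20204 ± 3951 CPM in untreated WT and 10236 ± 1021 CPM in WT Cort livers.

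**Figure D4:**
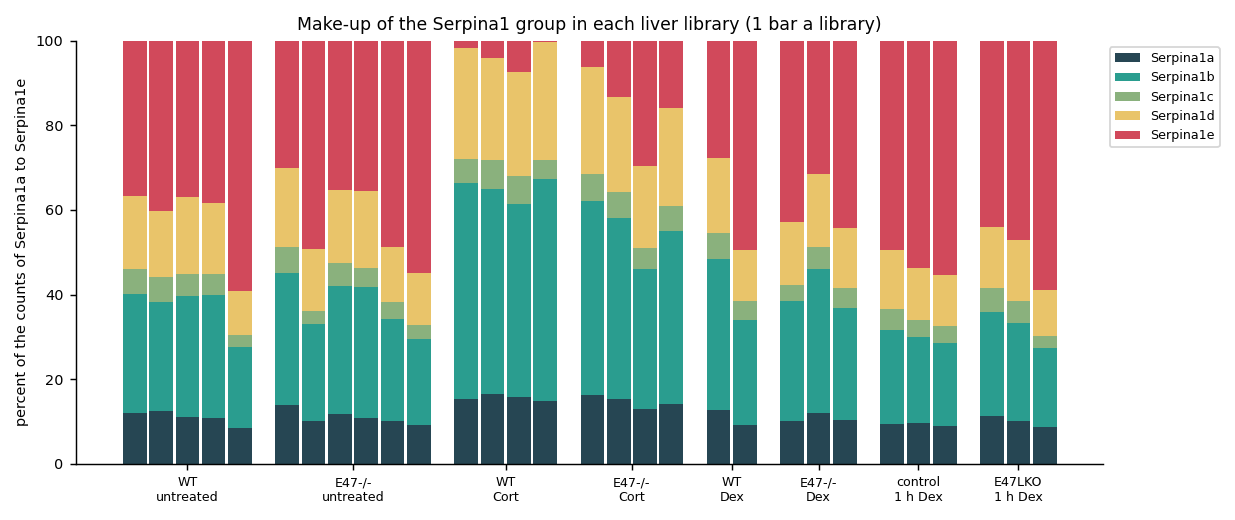
Share of each of the 5 Serpina1 genes in their summed unstranded counts, 1 bar a liver library, in percent. Serpina1e (red) takes 36.6 to 59.2% in untreated WT livers and 0.214 to 7.40% in WT Cort livers, while Serpina1b takes the largest share in each WT Cort library. The share of Serpina1c is understated as the text describes, and the copies differ in how much of their transcripts other genes share.

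In all, 2 of 33 members tested rose in WT livers after Cort (6.06%) and 11 fell (33.3%), with 17.4% of all 14991 genes called higher and 15.5% lower. In E47-/- livers edgeR called 0 higher and 8 lower (24.2%), with 21.4% and 17.1% of all genes. There 12 members had an unadjusted p under 0.05 in either direction, as did 7132 of all 14991 genes. DESeq2 called 0 members higher and 11 lower there, and 6214 of all genes in either direction. Serpina5 was at 1.60, 1.10, 2.13 and 1.20 CPM in WT Cort livers, above all untreated WT livers (log2 change 1.85 ± 0.56, adjusted p = 0.0161, edgeR), and lost its call without replicate 3. In E47-/- Cort livers it was at 0.167, 0.0529, 0.620 and 0.573 CPM and did not pass. Serpina3m rose to 532, 753, 690 and 625.3 CPM in WT Cort livers (log2 change 1.06 ± 0.28, adjusted p = 0.00739, edgeR).

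Among the members that fell with Cort, Serpind1 went to 460, 481, 482 and 492.7 CPM in WT (log2 change -0.44 ± 0.10, adjusted p = 0.00255, edgeR) and fell by the same 0.44 ± 0.09 in E47-/- livers (adjusted p = 0.00143). Serpina12 (vaspin), an inhibitor of kallikrein 7 named for visceral fat, was at 139, 91.8, 83.9, 127 and 108 CPM in untreated WT livers and at 64.5, 33.1, 34.2 and 7.55 CPM after Cort (log2 change -1.74 ± 0.57, adjusted p = 0.0247, edgeR), a call that was lost without Cort replicate 2, 3 or 4. In E47-/- livers Serpina12 also fell, with overlap, and kept its edgeR call in all 19 fits that left out 1 library (log2 change -2.09 to -1.60). In the WAT libraries, which its name recalls, it was at 0 and 0.337 CPM in WT. Serpina6 went to 213, 189, 89.1 and 151 CPM in WT, overlapping with untreated livers (adjusted p = 0.0387, edgeR), a call lost without any 1 of 6 libraries. Serpina9 was at 0.216, 0.147, 0.145 and 0.0249 CPM in WT Cort livers (log2 change -4.37 ± 0.74, adjusted p = 0.000302, edgeR) and at 0.358, 2.33, 0.877 and 0.156 CPM in E47-/- Cort livers, where it did not pass. The B cell markers summed to 1.89 to 4.32 CPM in WT and 1.14 to 4.56 CPM in E47-/- Cort livers. Serpinb9 and Serpina3f fell in both genotypes, as did Serpinb6a in unstranded counts alone. Of the 10 macrophage markers 8 fell in WT and 7 in E47-/- livers, summing to 144 to 383 CPM in untreated WT and 102 to 148 CPM in WT Cort livers, and of 7 T cell markers tested 6 fell in each. Their part in these 3 members was not tested. The direction of Serpinb6a depended on the count: unstranded counts gave log2 changes of -0.49 and -0.78, the strand column 1.15 and 1.01. Its exons overlap Nqo2, Ripk1 and 1110046J04Rik on the opposite strand, and in Cort libraries the strand column splits reads evenly, so no direction is drawn for it.

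At 1 h after Dex, 4 of 31 members tested were higher in floxed control livers than in untreated WT livers (12.9%) and 1 was lower (3.23%), with 6.13% of all 13858 genes called higher and 5.83% lower. Serpina6 was at 107, 88.6 and 106 CPM, below all untreated WT livers (-1.54 ± 0.28, adjusted p = 0.0081, edgeR), and missed the threshold without 1 h control replicate 2. Serpinh1 was at 10.4, 15.4 and 16.3 CPM against 5.02 to 8.49 CPM (1.21 ± 0.24, adjusted p = 0.0121, edgeR), a call lost without 1 h control replicate 2 or 3. Serpina3h, Serpina3f and Serpinb6b were the others, at under 10 CPM in every library of both groups. The count of 5 went to 0 without 1 h control replicate 2, to 1 without replicate 3, to 2 without untreated WT replicate 3 or 4 and to 3 without untreated WT replicate 2 (edgeR).

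The proteases that serpins hold back, in a list of 23 with 20 tested after Dex, were also counted. After Dex 8 fell and 1 rose in WT, and 8 fell and 2 rose in E47-/- livers, with 13.5% and 16.5% of all genes called lower. After Cort 7 of 19 fell and 1 rose in WT, and 5 fell and 1 rose in E47-/- livers, with 15.5% and 17.1% of all genes called lower. F11 (coagulation factor XI) fell from 108 to 37.9 CPM in WT Cort livers (log2 change -1.58 ± 0.21, adjusted p = 4.25e-05, edgeR) and Plg, the plasmin precursor, from 2538 to 1788 CPM (-0.57 ± 0.14, adjusted p = 0.00375, edgeR). Plat, the tissue plasminogen activator, rose from 0.345 to 0.846 CPM in WT Cort livers (1.20 ± 0.38, adjusted p = 0.0199, edgeR). Agt, a serpin-fold gene outside the naming rule whose product is the precursor of angiotensin, rose in both genotypes with both 3-week treatments, from 462 to 967 CPM in WT Cort livers (0.99 ± 0.11, adjusted p = 5.34e-06, edgeR). Of 15 classical GR targets 11 rose in WT and 8 in E47-/- livers after 3 weeks of Dex, 4 and 2 after Cort, and 7 rose and 1 fell at 1 h, with 13.8%, 17.7%, 17.4%, 21.4% and 6.13% of all genes called higher in that order. Of 18 acute phase genes 3 rose and 0 fell in WT livers after Dex and likewise after Cort (edgeR), a share near that of all genes.

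Comparing mutants with controls within each experiment, 0 of the members passed in any of 6 comparisons with edgeR's quasi-likelihood test. After 3 weeks of Dex 29 members were tested in liver and 2 had an unadjusted p under 0.05, with 0.00752% of all genes called at the adjusted threshold, and DESeq2 called 0 members. After Cort 30 were tested and 6 had p under 0.05 (0.0274% of all genes called, DESeq2 1 member). At 1 h 31 were tested and 5 had p under 0.05 (0.0% of all genes called, DESeq2 1 member). In untreated liver 32 were tested and 1 had p under 0.05 (0.0288%, DESeq2 0 members). In WAT 31 were tested and 1 had p under 0.05 (0.0%, DESeq2 0 members), and in muscle 22 were tested and 5 had p under 0.05 (0.0134%, DESeq2 0 members). The difference of genotype effects between Cort and untreated liver passed for 0 of 33 members (0.00667% of all genes called, DESeq2 0 members). Of the 33 members 6 had p under 0.05, as did 1024 of all 14991 genes.

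**Figure D5:**
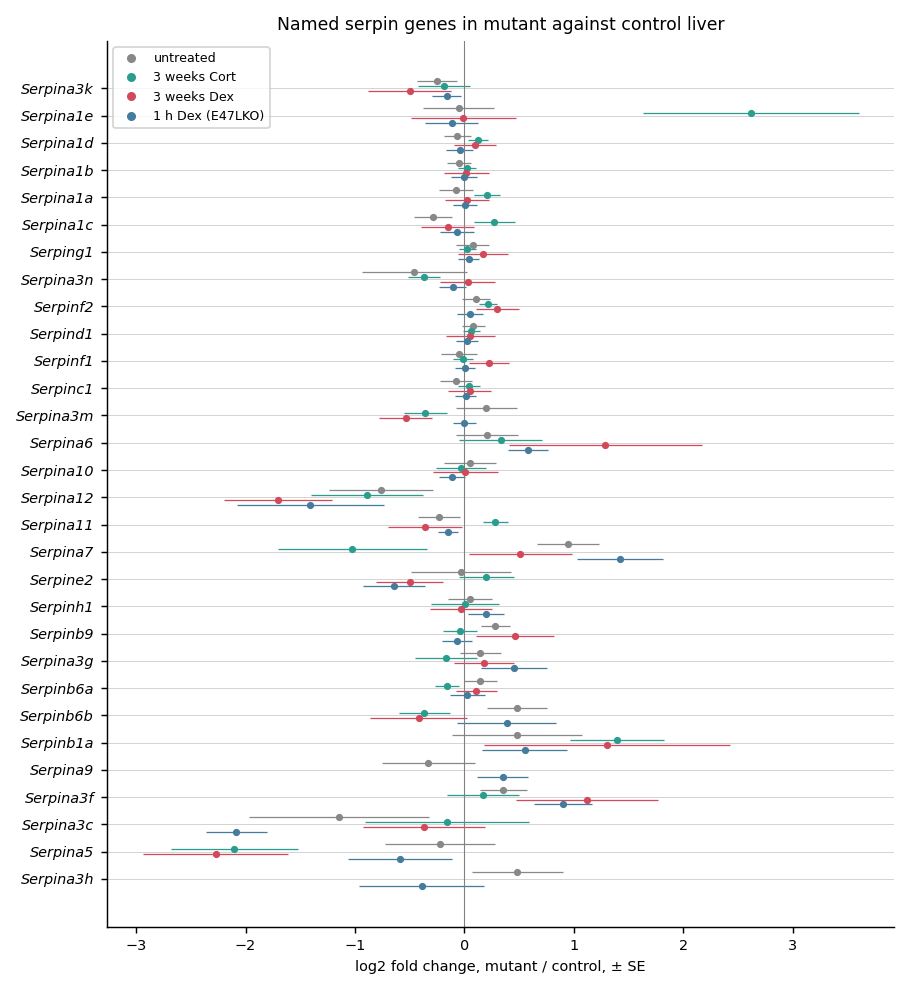
Log2 fold change ± SE of each named serpin gene in mutant against control liver, with colours for the 4 liver experiments. Most points lie near 0, Serpina5 after Dex and Cort near -2 and Serpina1e after Cort at 2.62, and none passed the adjusted threshold with edgeR.

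Serpina5 was lower in E47-/- than in WT livers without overlap in both long treatments, with log2 differences of -2.27 ± 0.67 after Dex (adjusted p = 0.999, edgeR) and -2.10 ± 0.58 after Cort (adjusted p = 0.279, edgeR; DESeq2 adjusted p = 0.0249). By the animal numbers in the file names the mice form 2 number ranges, whose meaning the labels do not give. WT was 2.71-fold and 4.80-fold above E47-/- within the 2 ranges of the Dex mice, and 14.5-fold and 2.47-fold above within those of the Cort mice. Each Dex range and the first Cort range held only 1 WT liver. Because the groups did not overlap, WT had to lie above in any such split, so the split adds no support. Without WT Dex replicate 2 the Dex difference was -0.87, and without WT Dex replicate 1 it was -2.98. Serpina12 was at 17.8, 21.4 and 37.5 CPM in E47-/- and 45.6 and 120 CPM in WT Dex livers (-1.70 ± 0.50, adjusted p = 0.999, edgeR), a difference of -0.78 without WT Dex replicate 2. The 3 E47LKO livers held 43.8, 89.7 and 6.58 CPM and their controls 118, 143 and 110 CPM, also without overlap. In untreated livers and after Cort the genotypes overlapped, and untreated E47-/- livers spanned 6.41 to 116 CPM.

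Serpina1e was higher in E47-/- than in WT livers on average after Cort, with a log2 difference of 2.62 ± 0.99 (adjusted p = 0.431, edgeR) and 1 WT liver above the lowest E47-/- liver. E47-/- livers lay 7.40-fold and 7.87-fold above WT in the 2 number ranges, the first of which held only 1 WT liver. The difference was 1.94 without E47-/- replicate 3 and 3.43 without WT replicate 3. Serpinb1a, an inhibitor of neutrophil proteases, was at 7.86, 2.41, 1.90 and 2.42 CPM in E47-/- and 1.51, 1.26, 1.28 and 1.25 CPM in WT Cort livers (1.39 ± 0.43, adjusted p = 0.34, edgeR), a difference of 0.72 without E47-/- replicate 1. Neutrophil markers summed to 1.46 to 3.87 CPM in E47-/- and 0.558 to 5.18 CPM in WT Cort livers.

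Serpina7 was at 41.5 to 157 CPM in untreated E47-/- livers (median 92.4) and 40.4, 49.3, 45.4, 67.1 and 31.5 CPM in untreated WT livers, overlapping (0.95 ± 0.29, adjusted p = 0.965, edgeR). In E47LKO livers it was at 89.2, 82.6 and 204 CPM against 31.7, 43.3 and 67.0 CPM in their controls, without overlap (1.42 ± 0.39, adjusted p = 1.0, edgeR). After Cort the direction was opposite: the WT livers held 21757 Serpina7 counts in all, 12271 of them in 1 library, and the E47-/- livers 9483. The Cort genotype effect minus the untreated one was -2.45 to -1.20 (log2) over fits that left out 1 library, and did not pass. Serpina3c was at 0.700, 0.580 and 0.454 CPM in E47LKO and 2.15, 2.78 and 2.49 CPM in control livers, without overlap (-2.09 ± 0.28, adjusted p = 0.699, edgeR; DESeq2 adjusted p = 0.00757). Serpina6 was at 145, 114 and 190 CPM in E47LKO and 107, 88.6 and 106 CPM in control livers (0.58 ± 0.18, adjusted p = 1.0, edgeR).

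In WAT Serpina3g was at 1.60 and 1.75 CPM in E47-/- and 0.754 and 0.701 CPM in WT (1.20 ± 0.31, adjusted p = 0.977, edgeR). Neutrophil markers summed to 77.1 and 89.2 CPM in E47-/- and 32.3 and 54.3 CPM in WT WAT, and their part was not tested. In muscle Serpina3c was at 2.70, 3.33 and 5.35 CPM in E47-/- and 0.938 and 1.89 CPM in WT (1.39 ± 0.45, adjusted p = 1.0, edgeR; 2.07 without WT replicate 2), while adipocyte markers summed to 1231 to 1590 CPM in E47-/- and 667 and 698 CPM in WT muscle. Serpina3c stood highest in WAT, and the part of adipocytes in its muscle level was not tested. Serpinc1, at 0.0991, 0.157 and 0.283 CPM in E47-/- and 0.160 and 3.43 CPM in WT muscle, took its difference of -3.35 ± 1.13 from WT replicate 2, the library rich in Alb, and without that library it was 0.23.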

How the data were processed

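RNA-seq of mouse liver, WAT and muscle was analysed in 39 libraries of 12 groups. The authors aligned reads to mm10 with STAR 2.4.2a and deposited raw gene counts per library. HTSeq is also named for the processing. Untreated, Cort and 1 h Dex libraries had 1 unstranded and 2 strand columns, and the 3-week Dex libraries 1 column alone. The unstranded count was used throughout, since the 3-week Dex libraries carry no strand. The authors' 6 tables of fold changes and p-values were not used. Gene symbols were found for 45143 of 45706 gene identifiers, and entries in no gene (20.8 to 36.8%) were left out.

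Members had 10 or more counts in 3 or more libraries, and 1 member is not reported here. The members and gene lists were chosen with earlier results of these data known. Comparisons used edgeR 4.0.16 (R 4.3.3; TMM scaling, filterByExpr, quasi-likelihood test, two-sided, Benjamini-Hochberg over all genes tested, threshold 0.05). Genotype was fitted within each experiment, treatment with 1 mean per group in the 4 liver groups (2 for the 1 h comparison), and tissue over the 14 Dex libraries. Dex liver and muscle share 3 mice by their file names. Alternatives were DESeq2 1.42.0, RLE size factors, no filter, the strand column, a replicate block, leaving out each library, the number range as a covariate, and, chosen after the data were seen, each number range alone. Scripts were tested on simulated data.

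Genes named were the 10 highest per kilobase in untreated WT liver and 5 each in WT WAT and muscle, the members past the threshold or else up to 3 of smallest p in each genotype comparison, up to 6 of smallest adjusted p in each treatment and tissue comparison, and a fixed list. Members named beyond that were chosen after their values were seen. Where a group had 0 counts, the floor was 3 counts per library. Intervals (95%) and floors cover counting error only. Replicate numbers did not pair the samples.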

Additional observations from a re-analysis of the deposited data

Results flagged for a closer look

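Of 120 groups of 4 to 6 liver libraries examined, 10 held a library far from the others. Dixon's 95% critical value, used here, marks about 1 in 20 independent groups by chance, and these groups share libraries. Among these, replicate 1 of the Cort livers stood high for Serpinb1a in WT (1.51 CPM) and in E47-/- mice (7.86 CPM) and for Serping1 in E47-/- mice (1058 CPM). Untreated WT replicate 5 stood high for Serpina1e (15884 CPM) and Serpina3c (2.72 CPM). Untreated E47-/- replicate 1 stood high for Serpinc1 (2318 CPM), and replicate 4 stood low for Serpinf2 (602 CPM). In Cort livers Serpina3h stood high in E47-/- replicate 3 (0.407 CPM) and WT replicate 2 (0.257 CPM), and Serpina3c stood low in E47-/- replicate 2 (0.0264 CPM). The causes were not tested.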

How the results depend on the processing

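Counts of members called are given here by setting, and the causes of the changes were not tested unless said. In the genotype comparisons 0 members passed with edgeR. After Dex in liver 2 passed with no filter on low counts (Serpina5 and Serpina12). After Cort 1 passed with DESeq2 (Serpina5). With the number range as a covariate 1 passed after Cort, which was not Serpina5, Serpina1e or Serpinb1a. At 1 h 1 passed with DESeq2 (Serpina3c). Leaving out 1 library gave 4 to 14 calls after Dex in WT, 6 to 15 in E47-/- livers and 0 to 7 at 1 h. It gave 0 in the genotype comparisons. At 1 h against untreated liver 5 members passed in all and 8 with DESeq2, which called 2472 of all 13858 genes there. Reversed values were Serpinb6b in untreated livers of the first number range (-0.032), Serpinc1 in muscle (-4.30 to 0.23 with 1 WT library left out) and Serpinb6a with the strand column (1.15 in WT and 1.01 in E47-/- Cort livers), which counts Cort libraries without strand. The replicate block gave 10 calls at 1 h against 5 and 0 in the genotype comparisons, but samples share only a number: correlations of their deviations ran from -0.492 to 0.792. RLE size factors kept all 164 values of named members on their side of the threshold. Over all genes edgeR and DESeq2 called 1 and 23 after Dex, 4 and 266 after Cort, 0 and 6 at 1 h, 4 and 11 untreated, 0 and 37 in WAT, 2 and 92 in muscle, 1 and 14 for the Cort difference and 2 and 4 for the Dex difference. Groups of 2 libraries and low counts limit the smaller changes.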
